A study of Mus musculus with 9 samples.

Results

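Bleomycin hydrolase and 9 enzymes of xenobiotic metabolism were followed in sorted lung fibroblasts of aged mice. The 10 genes were taken by name from the deposited table of 43346 genes. They are the hydrolase gene Blmh, the cytochrome P450 genes Cyp1b1, Cyp2b10, and Cyp2f2, the flavin-containing monooxygenase (FMO) genes Fmo1 and Fmo2, and the glutathione transferase genes Gsta3, Gstm1, Gstm2, and Gstt1. All mice were male Col1a1-GFP transgenics on a FVB background, in which GFP marks cells with an active collagen I promoter. They were 18 months old according to the protocol and 72 weeks old according to the sample labels. Each mouse received a single intratracheal dose of saline (aged sham, n = 4) or bleomycin (aged bleo, n = 5), and lungs were taken 30 days later. GFP+ cells negative for CD45, CD31, and EpCAM were sorted, and polyadenylated RNA was sequenced. A cell that does not drive the reporter was outside the gate, so the libraries do not cover all lung fibroblasts. Young mice were not analysed here.

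Cells clear foreign compounds in steps. P450s and FMOs add oxygen to a compound, transferases then couple the product to glutathione or another group, and transporters export the conjugate. Many of these genes are controlled by sensors, among them the aryl hydrocarbon receptor and NRF2, which bind short DNA elements near their targets. The club cells of the airway are known as the main P450 cells of the lung, and fibroblasts express a different set. Bleomycin hydrolase is a cytosolic cysteine peptidase that inactivates bleomycin by removing an amide, and low activity of this enzyme in the lung is a known feature of the toxicity of the drug there.

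After bleomycin, 8 of the 10 genes fell and none rose. Gstm1 fell to 24.0% of its aged sham level, Fmo2 to 46.0%, Gsta3 to 32.0%, Cyp2f2 to 28.6%, and Cyp2b10, the rarest of the 10 genes, to 11.9%. The exceptions were Cyp1b1, which did not pass the test, and Blmh, which was higher in every aged bleo library but by less than 1.5-fold. A gene was called when its fold change exceeded 1.5 and its FDR (the Benjamini-Hochberg adjusted p of edgeR's quasi-likelihood test) was below 0.10. The test covered the 16877 genes whose counts averaged 25 or more. All 10 genes passed that filter. At a 2-fold limit with an FDR below 0.05, 5 of the 10 genes were called, without Fmo1, Gstm2, and Gstt1. These stricter limits were met by 2158 of the 16877 genes tested. Of all genes tested, 23.8% were called in either direction, 11.5% as lower and 12.3% as higher. The median log2 fold change was -1.03 for the 10 genes and 0.006 for all genes tested. In 8 of the 10 genes, every aged bleo library was below every aged sham library, as for 16.1% of all genes tested, and Blmh showed the opposite order, also found for 16.1% of all genes. The groups were thus apart in 9 of the 10 genes, against 32.2% of all genes in either direction. In these bulk libraries, fewer cells of a type and less RNA per cell cannot be told apart.

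The regions upstream of the transcription start were searched for the core elements of the sensors. The RefSeq windows of 250 bases before the start (GRCm38.p6) covered 9 of the 10 genes; Fmo1 was not matched. The core of the aryl hydrocarbon response element, GCGTG on either strand, lay in 3 of these 9 genes (Cyp1b1, Cyp2b10, and Gstm1), and in 28.2% of 32851 promoters of the same length. The core of the antioxidant response element, TGACNNNGC on either strand, lay in Gsta3 alone among the 9, and in 10.2% of all promoters. The 9 genes had 11 windows and were counted by gene, whereas the shares of all promoters were counted by window. The windows of the 3 genes that represent a P450 known to respond to the receptor, the most abundant transferase, and the antioxidant element are given 5′ to 3′ on the strand of the gene, with the matched letters in capitals, on chr17:79715062-79715311 (minus strand), chr3:108017974-108018223 (minus strand), and chr1:21240335-21240584 (plus strand).
Cyp1b1: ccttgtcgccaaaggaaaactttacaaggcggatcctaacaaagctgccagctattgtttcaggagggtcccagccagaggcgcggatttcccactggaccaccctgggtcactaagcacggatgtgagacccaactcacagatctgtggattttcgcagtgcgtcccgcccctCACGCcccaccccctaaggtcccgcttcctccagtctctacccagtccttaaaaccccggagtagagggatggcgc
Gstm1: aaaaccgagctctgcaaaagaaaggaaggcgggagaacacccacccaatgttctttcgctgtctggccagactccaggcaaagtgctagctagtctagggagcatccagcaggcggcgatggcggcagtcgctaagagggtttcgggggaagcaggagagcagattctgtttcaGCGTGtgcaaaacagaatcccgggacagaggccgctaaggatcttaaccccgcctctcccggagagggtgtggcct
Gsta3: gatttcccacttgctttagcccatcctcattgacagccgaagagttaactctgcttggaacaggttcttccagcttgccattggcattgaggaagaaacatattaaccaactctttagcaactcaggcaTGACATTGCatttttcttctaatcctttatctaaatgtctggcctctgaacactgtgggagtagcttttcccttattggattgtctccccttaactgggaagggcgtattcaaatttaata
In Cyp1b1 the element lay on the opposite strand, 76 bases before the start, and in Gstm1 the start used for this window also put it 76 bases away, against 231 bases from the other start listed for this gene. The antioxidant element of Gsta3 lay 121 bases before its start. A match is given as a description of the sequence and not as a site that was bound.

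Gstm1 (ENSMUSG00000058135, chromosome 3, 108012255 to 108017973) encodes a mu class glutathione transferase and had the highest level per length of the 10 genes. Its level, as library-scaled counts (CPM, normalized by TMM), was 555.3, 696.8, 653.6, and 690.1 in aged sham 1 to 4 and 174, 271.4, 183, 73.18, and 76.31 in aged bleo 1 to 5. The highest aged bleo library therefore lay below the lowest aged sham library, and aged bleo 4 and 5 lay below the other aged bleo libraries. The mean was 649 ± 65.3 CPM (SD, n = 4) in aged sham and 155.6 ± 83 CPM (SD, n = 5) in aged bleo, a log2 fold change of -2.06 with a standard error of 0.37 and an FDR of 0.00363. Reads of Gstm1 are the least certain in origin, because 18.9% of its 50-base stretches recur in other annotated transcripts, mostly in the pseudogene Gstm2-ps1. The next highest share was 8.7%, for Cyp2b10, mostly with Cyp2b13.

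Gstm2 (ENSMUSG00000040562, chromosome 3, 107981702 to 107986453), a mu class gene of the same cluster, fell by far less. Its CPM values were 138.2, 185.1, 154.8, and 160.2 in aged sham and 106.7, 111, 101.4, 68.35, and 78.67 in aged bleo. The groups did not overlap, with a log2 fold change of -0.78 (standard error 0.15, FDR 0.00565). The difference between both genes was tested through the log2 ratio of Gstm1 to Gstm2 counts, which was 2.01, 1.91, 2.08, and 2.11 in the aged sham libraries and 0.71, 1.29, 0.85, 0.10, and -0.04 in the aged bleo libraries. The ratio was even across aged sham and lowest in aged bleo 4 and 5, and the groups did not overlap. The mean ratio dropped by 1.45 on the log2 scale, from 2.03 ± 0.09 to 0.58 ± 0.55 (exact permutation test, two-sided, p = 0.0159, adjusted p = 0.0476 over 3 ratios).

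Gstt1 (ENSMUSG00000001663, chromosome 10, 75783813 to 75798584) belongs to the theta class, which acts on small halogenated compounds. It was measured at 91.97, 111.3, 87.34, and 88.77 CPM in the aged sham libraries and at 66.15, 72.4, 64.59, 46.18, and 47.27 CPM after bleomycin. All aged bleo values were below the aged sham values, and the log2 fold change was -0.68 (standard error 0.15, FDR 0.00885). Gsta3 (ENSMUSG00000025934, chromosome 1, 21240589 to 21265661) is an alpha class gene whose product is known for conjugating aflatoxin epoxide. Per length it was the least abundant of the 4 transferases. Its level was 16.49, 28.9, 22.49, and 22.65 CPM in the aged sham libraries and 7.85, 11.87, 9.601, 3.029, and 3.845 CPM after bleomycin. The groups did not overlap, and the log2 fold change was -1.65 (standard error 0.38, FDR 0.0108).

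**Figure D1:**
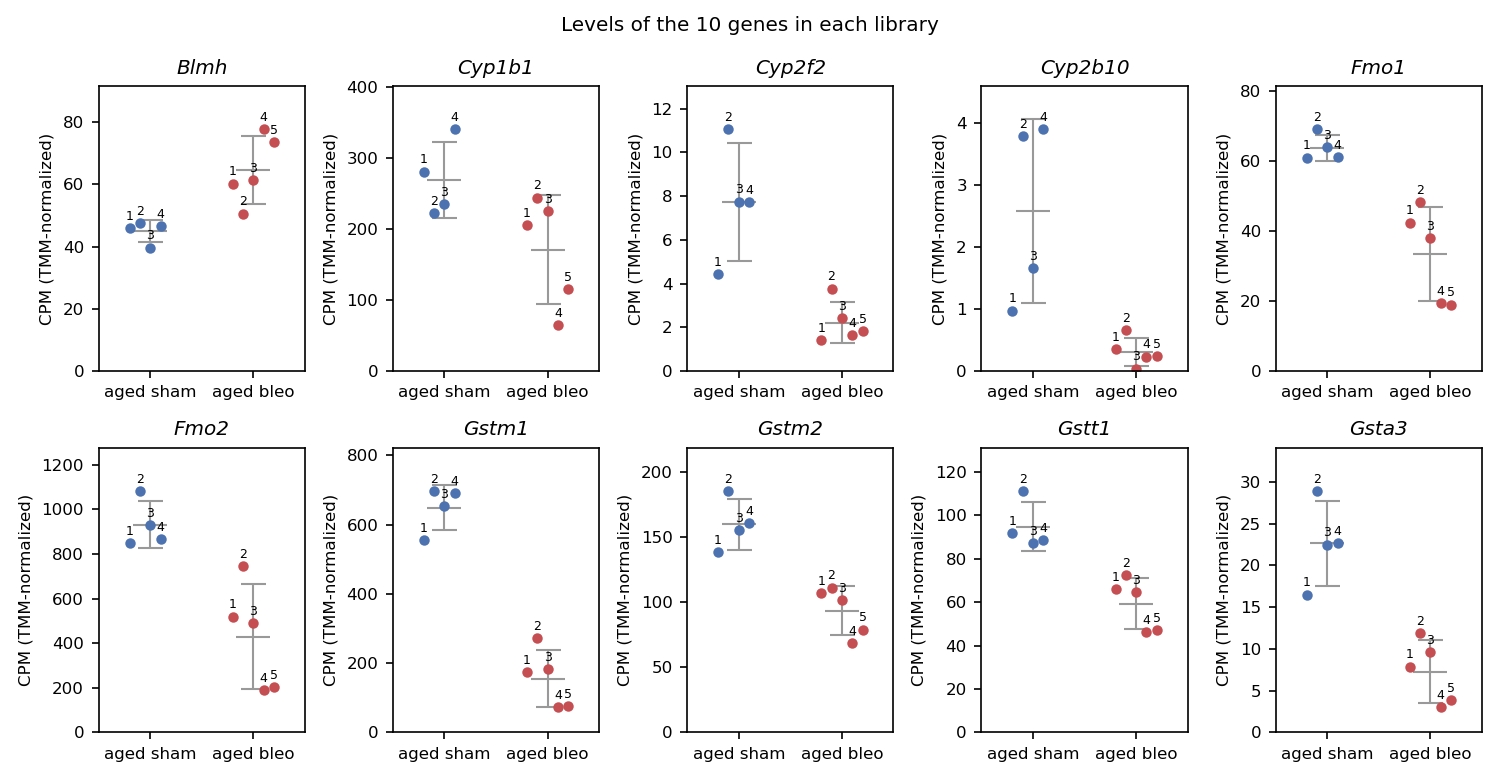
TMM-normalized CPM (linear axis from 0) of each of the 10 genes in the 4 aged sham and 5 aged bleo libraries; points are libraries labeled by replicate number, and the horizontal bar and whiskers are the mean and SD. In all panels but Blmh and Cyp1b1 the aged bleo points lie below all aged sham points, and in Blmh they lie above.

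Per transcript length, the makeup of the transferase pool differed between the groups. Of the summed FPKM of 23 glutathione transferase genes, Gstm1 held 52.4%, 52.7%, 55.2%, and 55.7% in aged sham 1 to 4 and 30.2%, 40.0%, 32.7%, 18.5%, and 19% in aged bleo 1 to 5. Its mean share went from 54.0 ± 1.7% (SD, n = 4) to 28.1 ± 9.26% (SD, n = 5). The share of Gstm2 was higher in all aged bleo libraries (14.9 ± 1.02% against 11.0 ± 0.408%), as was that of Gstt1 (10.4 ± 0.395% against 7.21 ± 0.683%), although the levels of both genes fell. The summed FPKM of the family was 318.1 to 403.8 in aged sham and 124.5 to 203.9 in aged bleo. These shares were not tested and are given as a description.

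**Figure D2:**
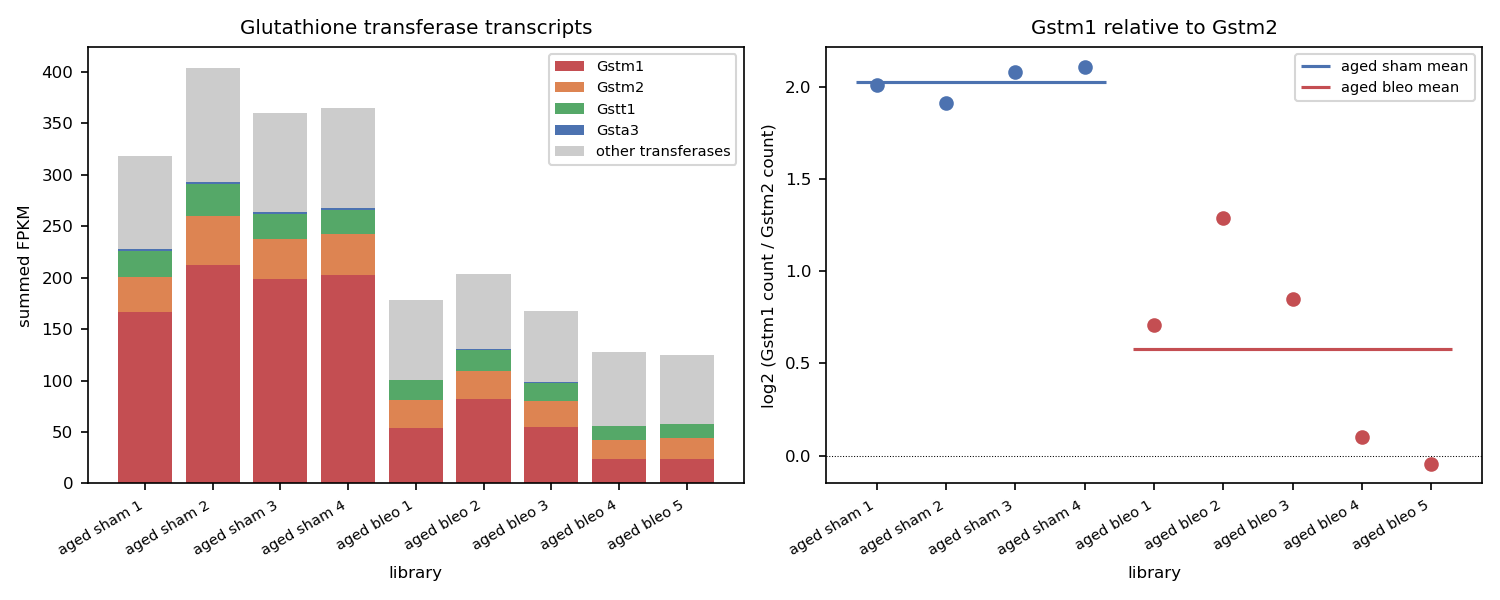
Left, deposited FPKM of 23 glutathione transferase genes, stacked by gene for each library; right, log2 ratio of Gstm1 to Gstm2 counts for each library, with the group means as lines. The Gstm1 block shrinks most in aged bleo 4 and 5, where the ratio is 0.10 and -0.04 against 1.91 to 2.11 in aged sham.

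Of the other glutathione transferases, 10 of 18 tested genes fell and 2 rose, where 11.5% of all genes tested fell and 12.3% rose. Gstm6 (log2 fold change -1.23, standard error 0.31, FDR 0.0149), Gsta4, which conjugates the lipid peroxidation product hydroxynonenal (-1.18, standard error 0.26, FDR 0.00815), and Gstk1, of the mitochondrial and peroxisomal kappa class (-0.89, standard error 0.17, FDR 0.00449), fell the most among those with a mean of at least 1 CPM over all libraries. Below that level, Gstm3 fell further (-2.05, standard error 0.47, FDR 0.0105). Hpgds, the hematopoietic prostaglandin D synthase, rose with overlapping groups (1.32, standard error 0.52, FDR 0.0734), and Gsto1, of the omega class, rose without overlap (0.96, standard error 0.27, FDR 0.0229). The median log2 fold change of the 18 genes was -0.62.

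Fmo2 (ENSMUSG00000040170, chromosome 1, 162874317 to 162898726) encodes the main lung FMO, which oxygenates compounds at nitrogen or sulfur. Its level was 848.4, 1082, 928.8, and 865.6 CPM in the aged sham libraries and 518.6, 743.9, 489.4, 188, and 203.3 CPM after bleomycin. Aged bleo 2 came close to the aged sham range, whereas aged bleo 4 and 5 were far below it. The log2 fold change was -1.12 (standard error 0.38, FDR 0.0469), and without aged sham 2 the gene was no longer called (-1.04, FDR 0.106). Fmo1 (ENSMUSG00000040181, chromosome 1, 162829561 to 162866610), in the same gene cluster, was less abundant per length and the most even of the 10 genes across aged sham, with a coefficient of variation of 5.92%. It was at 61.01, 69.06, 63.96, and 61.09 CPM in the aged sham libraries and at 42.39, 48.27, 37.88, 19.39, and 18.93 CPM after bleomycin, where this coefficient was 40.4%. Fmo1 fell with a log2 fold change of -0.93 (standard error 0.28, FDR 0.0280).

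The log2 ratio of Fmo1 to Fmo2 counts was -3.86 in aged sham and -3.59 in aged bleo, a difference of 0.27 that did not pass (exact permutation test, p = 0.0873, adjusted p = 0.103), except without aged bleo 2 (0.36, adjusted p = 0.0429). Fmo2 held 89.6% of the summed FPKM of 7 FMO genes in aged sham and 88.3% in aged bleo, with overlapping ranges. Of the other FMO genes, Fmo5 fell (log2 fold change -1.22, standard error 0.23, FDR 0.00462) and Fmo4 was not called (-0.06, standard error 0.20, FDR 0.848).

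Cyp1b1 (ENSMUSG00000024087, chromosome 17, 79706953 to 79715041) is the P450 of mesenchymal cells that oxidizes polycyclic hydrocarbons and estradiol and is induced through the aryl hydrocarbon receptor. Per length it was the most abundant of the 3 P450s. Its level was 280.7, 222.4, 234.6, and 340.1 CPM in the aged sham libraries and 205.5, 243.8, 224.8, 64.39, and 115.6 CPM after bleomycin. Aged bleo 2 and 3 lay within the aged sham range, aged bleo 1 just below it, and aged bleo 4 and 5 lay well below it. The log2 fold change of -0.66 (standard error 0.35, FDR 0.171) had a 95% interval from -1.44 to 0.13, so neither no change nor a fall of more than 2-fold was outside it.

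Cyp2f2 (ENSMUSG00000052974, chromosome 7, 27119909 to 27133660) is known from club cells, where it activates naphthalene. It was at 4.442, 11.05, 7.751, and 7.724 CPM in the aged sham libraries and at 1.395, 3.767, 2.409, 1.651, and 1.831 CPM after bleomycin. The groups did not overlap, and the log2 fold change was -1.81 (standard error 0.34, FDR 0.00426). The exons of the gene share 274 bases with the antisense gene Gm15883, and whether the counting used strand is not given in the sources used here, so reads of both may be mixed. Scgb1a1, the main secretory product of club cells, was at 0.8561 to 2.783 CPM across aged sham and 0.579 to 7.965 CPM across aged bleo, and the summed level of the 7 club and ciliated cell markers was 1.52 to 3.57 CPM and 1.27 to 8.70 CPM. Per length, Cyp2f2 was at 0.918 to 2.32 FPKM and Scgb1a1 at 0.7512 to 2.393 FPKM in aged sham. The log2 ratio of Cyp2f2 to Scgb1a1 counts was 2.25 ± 0.65 in aged sham and 0.67 ± 1.71 in aged bleo, a difference of -1.58 that did not pass (exact permutation test, p = 0.103, adjusted p = 0.103), except without aged bleo 2 (-1.91, adjusted p = 0.0571) or aged bleo 3 (-1.92, adjusted p = 0.0857). Without aged bleo 5, the library with Scgb1a1 at 7.965 CPM, the difference was -0.88 (adjusted p = 0.143 in the exact permutation test).

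Cyp2b10 (ENSMUSG00000030483, chromosome 7, 25897620 to 25926624), the phenobarbital-inducible P450, had the lowest level per length of the 10 genes. It had 60, 221, 85, and 193 counts in aged sham 1 to 4 and 19, 37, 2, 17, and 13 counts in aged bleo 1 to 5. In CPM these were 0.9691, 3.781, 1.655, and 3.892 against 0.3534, 0.6575, 0.03736, 0.232, and 0.238, without overlap but with a several-fold spread inside each group. The log2 fold change was -3.07 (standard error 0.65, FDR 0.00722; 95% interval -4.53 to -1.62), and on the log2(FPKM + 1) scale the gene was not called (-0.49). The genes whose patterns came nearest to it were Mal2, E330013P04Rik, and Ager, with mean absolute differences of 0.353, 0.594, and 0.60 in log2 CPM over the 9 libraries. Ager, a marker of alveolar type 1 epithelium, fell from 19.79 ± 11.6 CPM (SD, n = 4) to 1.981 ± 0.535 CPM (SD, n = 5), with a log2 fold change of -3.32 (standard error 0.46, FDR 9.99e-04). The other 7 alveolar epithelium markers were not called, and the median log2 fold change of the 8 was 0.32. Sftpc, a marker of alveolar type 2 epithelium, stood at 57.9 CPM in aged sham 3 and at 3.08 to 5.465 CPM in the other aged sham libraries, an order that Cyp2b10 did not share. The summed level of the 8 alveolar epithelium markers was 12.6 to 116 CPM across aged sham and 16.9 to 65.2 CPM across aged bleo. The mean log2 CPM of this list did not pass (adjusted p = 0.533 in an exact permutation test). The part of epithelial RNA in the fall of Cyp2b10 was not tested.

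Of the other P450s, 7 of 16 tested genes fell and 2 rose, with a median log2 fold change of -0.47. Among all genes tested, 11.5% fell and 12.3% rose. The sterol hydroxylase Cyp27a1 (-1.65, standard error 0.36, FDR 0.00849), the lung fatty acid hydroxylase Cyp4b1 (-1.53, standard error 0.36, FDR 0.0116), and Cyp2s1 (-1.16, standard error 0.16, FDR 0.00115) fell. Cyp7b1, which hydroxylates oxysterols, rose from 18.8 to 60.7 CPM (1.69, standard error 0.13, FDR 3.98e-05), and Cyp4f16 rose as well (0.73, standard error 0.15, FDR 0.00727). Among 5 electron donors of the P450s, Cyb5a, the microsomal cytochrome b5, fell (-0.98, standard error 0.15, FDR 0.00195) and the other 4 were not called.

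**Figure D3:**
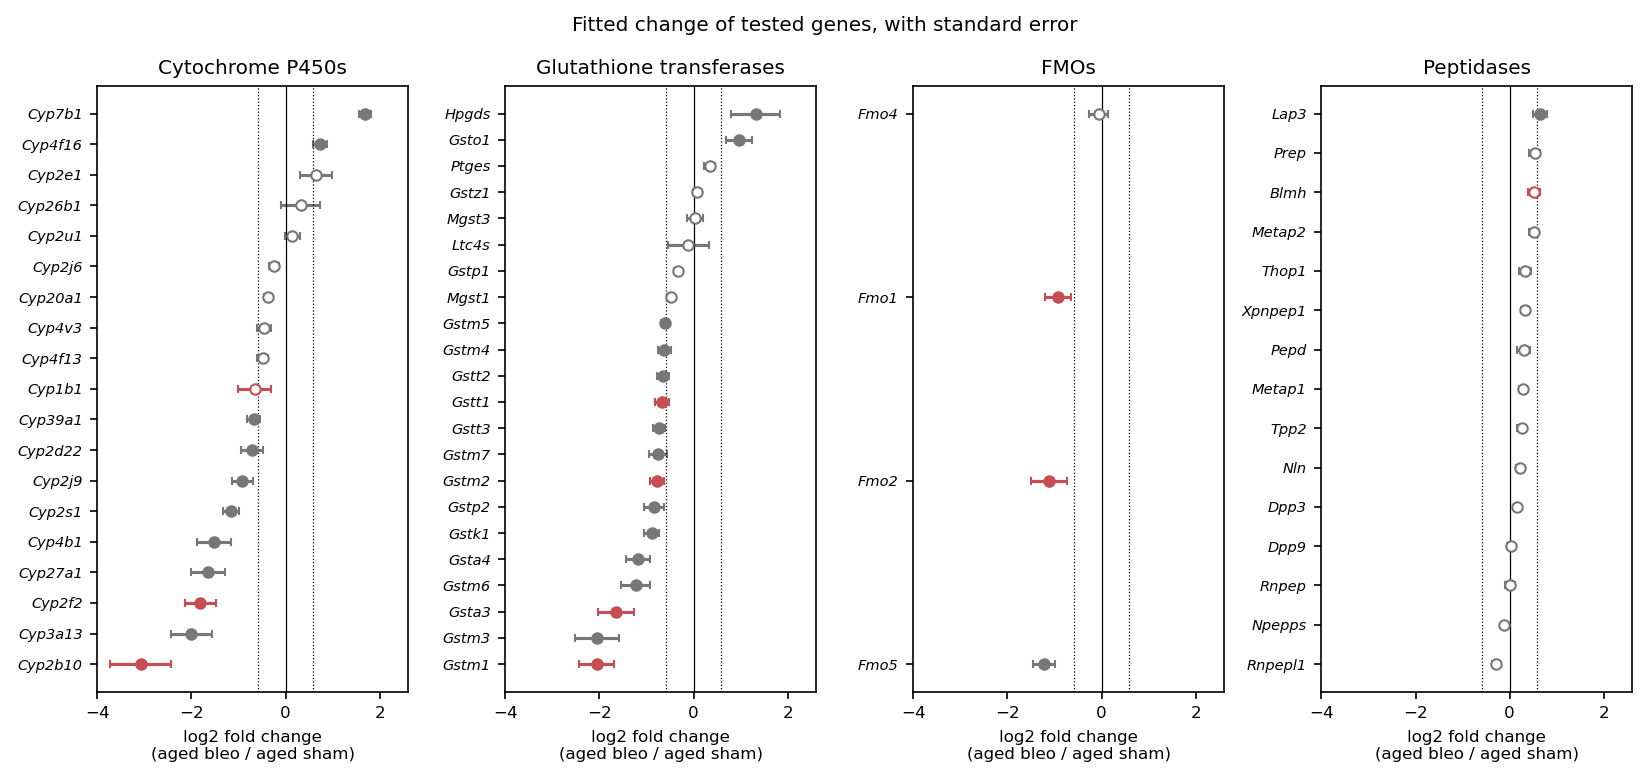
Log2 fold change of aged bleo over aged sham (x axis) for the tested genes (y axis) of the P450, glutathione transferase, FMO, and cytosolic peptidase groups; whiskers are standard errors, red marks the 10 genes of interest, gray the others, and filled points were called. Dotted lines mark 1.5-fold; most called enzymes lie to the left of 0, and Blmh lies just inside the right line at 0.53.

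Blmh (ENSMUSG00000020840, chromosome 11, 76924809 to 76987379) went the other way. It was at 45.87, 47.55, 39.63, and 46.65 CPM in the aged sham libraries and at 60.2, 50.58, 61.41, 77.64, and 73.66 CPM after bleomycin. Every aged bleo library was above the aged sham libraries, aged bleo 2 by the smallest margin. The mean was 44.92 ± 3.59 CPM (SD, n = 4) against 64.7 ± 10.9 CPM (SD, n = 5), and the log2 fold change was 0.53 (standard error 0.13, FDR 0.0125; 95% interval 0.24 to 0.81). An FDR under 0.10 without a limit on fold change was reached by 44.8% of all genes tested. The fold change of 1.44 was below the limit of 1.5, and Blmh was called without aged bleo 2 (0.60, FDR 0.00306). Of 14 other cytosolic peptidases, Lap3, the leucine aminopeptidase, rose (0.64, standard error 0.15, FDR 0.0123) and 13 were not called, with a median log2 fold change of 0.26. Among all genes tested, 12.3% rose.

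Set in order by FPKM, which corrects for transcript length, the aged sham levels ran from Gstm1 (195 ± 19.9) over Fmo2 (69.7 ± 8.87), Gstm2 (39.9 ± 5.16), Gstt1 (26.0 ± 3.34), Cyp1b1 (22.0 ± 3.97), Fmo1 (4.25 ± 0.31), Blmh (3.20 ± 0.247), Gsta3 (2.19 ± 0.508), and Cyp2f2 (1.61 ± 0.574) to Cyp2b10 (0.510 ± 0.292). Only the neighbors Gstt1 and Cyp1b1, and Gsta3 and Cyp2f2, had overlapping ranges in aged sham. In aged bleo the order of the means was kept but for Blmh (4.74 ± 0.921) and Fmo1 (2.26 ± 0.878), which changed places. The 5 most abundant genes moved closer together after bleomycin, from Gstm1 at 47.5 ± 24.5 FPKM to Cyp1b1 at 14.2 ± 6.18 FPKM, and each of them overlapped the next one in the order.

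Within aged bleo, the libraries kept a common order across the members. All 9 genes other than Blmh were highest in aged bleo 2, and 7 of these 9 had their 2 lowest values in aged bleo 4 and 5. Blmh was lowest in aged bleo 2 and highest in aged bleo 4. The same order was common in the table, where 71.5% of all genes called lower were highest in aged bleo 2 and 70.8% had their 2 lowest values in aged bleo 4 and 5. Of all genes higher at an FDR under 0.10, 61.2% were lowest in aged bleo 2.

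**Figure D4:**
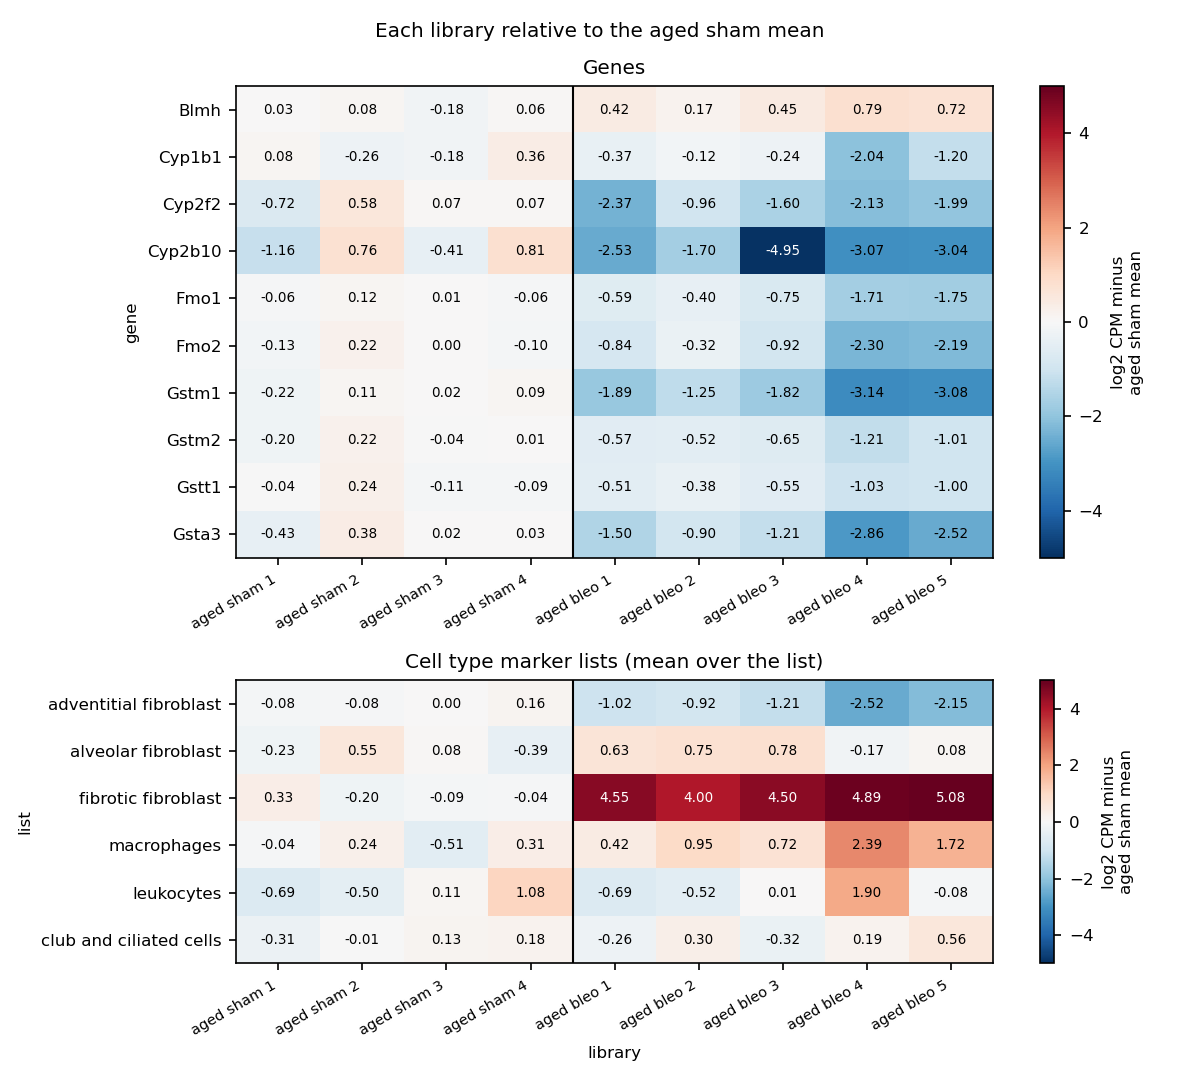
Log2 CPM minus the aged sham mean for the 10 genes (top) and for the mean of 6 cell type marker lists (bottom), by library; blue is below and red above the aged sham mean. Aged bleo 4 and 5 have the lowest values for most genes and for the adventitial list, and in the top panel aged bleo 2 has the values nearest to aged sham.

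Marker lists of fibroblast types and of other cells were measured beside the members. The 7 fibroblast identity genes were at a summed 26900 to 32600 CPM across aged sham and 55900 to 72800 CPM across aged bleo, while their mean log2 CPM did not pass (difference 0.20, adjusted p = 0.476 in the exact permutation test). Of these genes the collagens Col1a1, Col1a2, and Col3a1 rose, with log2 fold changes of 2.33, 1.59, and 1.60, whereas Dcn (-1.54) and Fbln1 (-1.42) fell and Pdgfra and Lum were not called. The 7 adventitial fibroblast markers, among them Pi16 and Dpp4, had a mean log2 CPM of 9.12 to 9.36 in aged sham, 8.28 in aged bleo 2, 6.68 in aged bleo 4, and 7.05 in aged bleo 5 (difference -1.56, exact permutation p = 0.00794, the smallest that 4 against 5 libraries allow, adjusted p = 0.0397 over 10 lists). Of these 7 markers, 6 fell, and Ccdc80 rose without overlap (log2 fold change 0.79, FDR 0.00260). The 6 fibrotic fibroblast markers, among them Cthrc1 and Postn, were higher in aged bleo by 4.60 on this scale (exact permutation p = 0.00794, adjusted p = 0.0397), with their lowest aged bleo value also in aged bleo 2. The 7 alveolar fibroblast markers did not pass (difference 0.41, exact permutation p = 0.183, adjusted p = 0.365). The macrophage list was higher, with a summed level of 130 to 245 CPM in aged sham and 434 to 1380 CPM in aged bleo. Its mean log2 CPM differed by 1.24 (exact permutation p = 0.0159, adjusted p = 0.0529). The summed leukocyte level overlapped (89.5 to 327 CPM against 91.0 to 509 CPM) and was highest in aged bleo 4 and aged sham 4. The mean log2 CPM of the leukocyte list did not pass (adjusted p = 0.865 in the exact permutation test). The endothelial, smooth muscle, and club cell lists did not pass either (differences 0.08, -0.46, and 0.10, adjusted p = 0.802, 0.337, and 0.802 in the exact permutation test). With aged sham 1, 2, 3, or 4 left out, the macrophage list did not pass (adjusted p = 0.134 to 0.179 in exact permutation tests), nor did the adventitial and fibrotic lists without aged sham 3 or 4 (adjusted p = 0.119). Fewer libraries leave fewer splits, so these p-values cannot go as low as with all libraries. Without aged bleo 4 and aged sham 4, 8 of the 10 genes were still called. The part of shifts between these cell types in the changes of the 10 genes was not tested.

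The sensors of the pathway were mixed. The aryl hydrocarbon receptor gene Ahr rose from 30.96 ± 7.21 CPM (SD, n = 4) to 70.83 ± 14.8 CPM (SD, n = 5), with a log2 fold change of 1.19 (standard error 0.21, FDR 0.00295). Tiparp, a target of the receptor that restrains it, fell from 78.39 to 49.87 CPM (-0.65, standard error 0.067, FDR 2.13e-04), and Ahrr, its repressor, fell at a level under 1 CPM (-1.30, standard error 0.21, FDR 0.00200). Cyp1a1, the classic target, was under the filter, with mean CPM values of 0.05935 (aged sham) and 0.02856 (aged bleo). Maff and Mafk, small Maf partners of NRF2, fell (-1.33 and -1.004, standard errors 0.27 and 0.21, FDR 0.00574 and 0.00698). Mafg, another small Maf gene, was not called (-0.08, FDR 0.424). Nfe2l2, the gene of NRF2, was lower without overlap but by less than 1.5-fold, so it was not called (-0.45, FDR 0.00570). Of the 13 sensors and partners tested, 1 rose and 4 fell, where 12.3% of all genes tested rose and 11.5% fell. Cyp1a1, Ahrr, and, in the other lists, Gstm3, Fmo4, and Ggt1 were named after their values were seen.

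Of 10 genes of glutathione supply, 2 were lower and 1 was higher, where 11.5% of all genes tested were lower and 12.3% higher. This count is given as a description. Gclc, the catalytic subunit of the enzyme that limits glutathione synthesis, fell (-0.80, standard error 0.14, FDR 0.00331), as did Ggt5, which cleaves glutathione conjugates outside the cell (-0.83, standard error 0.19, FDR 0.0100). The gene that rose was Ggt1, at under 1 CPM in both groups. Of 26 other conjugating, reducing, and hydrolyzing enzymes, 13 fell and 2 rose. Inmt, an amine N-methyltransferase, fell from 1984 ± 436 CPM to 559.8 ± 352 CPM (-1.83, standard error 0.45, FDR 0.0141), with the carboxylesterase Ces2g (-1.80, standard error 0.46, FDR 0.0167) and the aldehyde dehydrogenase Aldh3a1 (-1.29, standard error 0.36, FDR 0.0230). Akr1b8, an aldo-keto reductase, rose (0.73, standard error 0.13, FDR 0.00396). Among the 13 were 3 Ugt1a genes that share their last exons and are therefore not independent. Of 7 efflux transporters, Abcc3, which exports conjugates, rose with overlapping groups (1.14, standard error 0.40, FDR 0.0531) and none fell. Over all 9 lists, 39 of 112 tested genes fell and 10 rose, where 11.5% of all genes tested fell and 12.3% rose.

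The patterns of the members were also matched against all genes at 1 CPM or more, by the mean absolute difference of centred log2 CPM over the 9 libraries. Gstt1 lay nearest to Gstt3, another theta class gene on chromosome 10 (0.057 against a median of 0.397 over 15270 genes). Phlda1 (0.0573) and Pink1 (0.0594) lay almost as near to it. Gstm1 lay nearest to Omd, Thbd, and Tmem178b (0.0972 for Omd), Gstm2 to Ap3m2, Slc31a2, and Kcnn1 (0.0539 for Ap3m2), and Gsta3 to Duox2, Il17d, and Adra1b (0.114 for Duox2). Fmo1 was followed most closely by Sgsm2, Shank3, and Cbx7 (0.0633 for Sgsm2), and Fmo2 by Gm11744, Klf15, and Mn1 (0.0929 for Gm11744). Cyp1b1 was nearest to Fgd5, Heg1, and Abi3bp (0.148 for Fgd5), Cyp2f2 to Slc47a1, Cbs, and 4833412C05Rik (0.24 for Slc47a1), and Blmh to Ttll12, Fam117b, and Lsm8 (0.0488 for Ttll12). Among the members themselves, Gstm2 and Gstt1 were the closest pair (0.081), followed by Fmo1 and Fmo2 (0.187).

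The libraries held 49921946 to 68260600 counts, so counting error was small for all members but Cyp2b10. The names of all aged sham libraries and of aged bleo 4 end in 4, those of aged bleo 1 to 3 in 5 and that of aged bleo 5 in 6, and what this stands for is not given in the sources used here. The only comparison within one ending sets aged sham against aged bleo 4 alone. That library had the lowest aged bleo value for 6 of the 9 genes other than Blmh, the highest for Blmh, and the highest summed leukocyte level (508.8 CPM), so the comparison describes this library and not the treatment. In it Blmh was higher (log2 fold change 0.80), and Cyp1b1 (-2.06) and the other 8 genes were lower. The name ending and the treatment cannot be told apart in the other libraries.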

How the data were processed

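The authors deposited 1 table of whole-number read counts per gene without normalization, with FPKM values scaled to gene length and library size by the authors. The submitters' processing notes name STAR 2.5.2b, featureCounts, and the builds mm10 and GRCm38. Deposited positions equal those of GENCODE M21 for 78.8% of 42462 shared identifiers. Library totals ranged from 49921946 to 62370512 (aged sham) and from 53833507 to 68260600 (aged bleo). Library totals of this size leave little counting error except at low levels. The edgeR p-values set the difference between the groups against the spread between the libraries of these mice.

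Groups followed the sample titles, and every library was used. After TMM scaling, edgeR 4.0.16 was run on the counts (glmQLFit, glmQLFTest) in R 4.3.3 without covariates, where the study used a moderated test. Standard errors came from the fold change and its F statistic. List levels are means of log2 CPM with a prior count of 2, and ratios had 0.5 counts added. Both were compared by two-sided exact permutation with Benjamini-Hochberg adjustment and called at an adjusted p under 0.10. The genes, lists, and tests were chosen with earlier results of these data known. Named genes are the 10 genes, up to 3 genes per direction and list with the largest called change and a mean of at least 1 CPM, the 3 genes nearest in pattern, and list markers, besides 5 genes said to be named after their values were seen, and apart from 1 gene that is not reported here. The family shares and the order among aged bleo libraries were examined after the values were seen. Alternatives were DESeq2 1.42.0, limma 3.58.1, other scalings, filters, pseudocounts, and thresholds, and libraries left out. On counts simulated for the 16877 genes with 200 changed, edgeR recovered 72% of 2-fold and 92% of 4-fold changes, with 12 false calls among 176. In the data, 23.8% of the genes tested were called, a far larger part than was changed there, so these rates need not hold for the data.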

Additional observations from a re-analysis of the deposited data

How the results depend on the processing

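No log2 fold change of the 10 genes changed sign under any alternative run, and Cyp2f2, Gsta3, and Gstm1 were called in each of them. The count of 8 called genes became 5 at a 2-fold limit with an FDR below 0.05, which left out Fmo1 (-0.935), Gstm2 (-0.775), and Gstt1 (-0.677), and it was 7 to 9 with each library left out. On log2(FPKM + 1) Cyp2b10 had -0.489 and was not called, as this pseudocount exceeds its level, and a filter of 10 counts in every library removed it. Within the libraries whose names end in 4, Blmh (0.798) and Cyp1b1 (-2.057) passed the thresholds, but this arm holds the single library aged bleo 4, which had the most extreme value for both genes and was assumed to vary like aged sham, so it says nothing of stability. The 49 called list genes became 28 on log2(FPKM + 1) and 26 at the stricter thresholds, and 44 to 53 with each library left out. Over all genes, 4022 calls became 1785, 2158, and 6171 under the FPKM + 1 scale, the stricter thresholds, and the shared name ending. When single libraries were omitted, log2 fold changes ranged from 0.441 to 0.603 for Blmh and from -1.413 to -0.939 for Fmo2, and the log2 ratio difference from 0.195 to 0.362 for Fmo1 to Fmo2 and from -1.922 to -0.883 for Cyp2f2 to Scgb1a1. In the same way, list differences ranged from -0.022 to 0.198 (club and ciliated cells), -0.06 to 0.202 (endothelium), -0.32 to 0.484 (leukocytes), 0.952 to 1.443 (macrophages), -1.726 to -1.325 (adventitial), and 4.482 to 4.753 (fibrotic). The club list changed sign without aged sham 1 or aged bleo 5 (-0.008 and -0.022), the endothelial list without aged sham 2 or aged bleo 4 (-0.06 and -0.023), and the leukocyte list without aged sham 1, aged sham 2, or aged bleo 4 (-0.106, -0.041, and -0.32). The macrophage list lost its call without any one aged sham library, and the adventitial and fibrotic lists without aged sham 3 or 4 (adjusted p = 0.119 in exact permutation tests), where fewer libraries leave fewer splits. As summed CPM, alveolar epithelium (-0.045) and endothelium (-0.143) changed sign and smooth muscle (-0.614) and fibroblast identity (1.153) passed. Whether the replicate numbers pair the mice is not given in the sources used here, and correlations between single libraries cannot decide it. The correlations of deviations were 0.092, 0.062, -0.13, and 0.326 for numbers 1 to 4. Of the 4 aged sham libraries, 1 correlated best with the aged bleo library of its own number. With the replicate number as a block, 8 of the 10 genes, 44 list genes, and 3536 genes in all were called. The alternative without aged bleo 4 and aged sham 4, chosen after the data were seen, gave 8 genes and 45 list genes. The causes of these changes were not tested. Depth limits Cyp2b10 most, with 2 counts in aged bleo 3.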
